A study of Homo sapiens with 24 samples.

Results

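The H3K4me1 map of UMUC1 cells that carry wild-type UTX was set against the map of the same cells with an empty vector. UMUC1 is an established human bladder cancer cell line, and each line was stably transduced with a puromycin-selectable pSIN construct. The construct was empty in the first line (EV) and encoded wild-type UTX in the second (WT). The third line (HEAA), used here only for values side by side, expressed UTX with the substitutions H1146A and E1148A. Cells of all lines were harvested 3 days after plating, and whether a line was 1 clone or a pool is not given in the labels. The comparison takes 2 of the 24 samples of the series, 1 broad region list for each line, chosen by their titles. The EV list held 138215 regions and the WT list 165716 on the autosomes and chromosome X, 303931 of the 1482626 regions and peaks in the 18 lists of the series. H3K27ac had 2 numbered libraries per line, and H3K27me3, UTX and MLL4 had 1 list per line. The titles label the UTX and MLL4 libraries mnase, and those of H3K4me1, H3K27ac and H3K27me3 sonic. Positions are on hg19.

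H3K4me1, monomethylation of lysine 4 of histone H3, marks enhancers and the flanks of promoters. It is written largely by the methyltransferases MLL3 and MLL4, and UTX (KDM6A), an H3K27 demethylase often mutated in bladder cancer, is a subunit of their complexes. H3K4me1 together with H3K27ac, an acetylation mark, is found at active enhancers, and H3K4me1 without it at enhancers often called primed. Over an active element the mark commonly flanks a centre bound by transcription factors, where nucleosomes are depleted or carry higher methylation states of the same lysine. A broad region list can therefore differ in which elements are marked, in how far the mark spreads, and in whether its centre is filled.

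With 1 H3K4me1 library per line, all values below that compare the 2 lists describe those lists, without replicate error. The read depth is unknown, and a place without a region lies below the caller's threshold and may still hold signal. Regions of the WT list were slightly narrower, with a median of 726 bp and an interquartile range of 403 to 1351 bp, against 741 bp and 406 to 1429 bp in EV. The deposited fold enrichment of a region over its background had a median of 2.94 in WT and 2.91 in EV, and its highest value was 8.15 in WT and 10.1 in EV. Narrow regions made up a similar part of both lists, and 34.1% of the WT and 33.4% of the EV regions were under 500 bp wide.

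By count, most regions of each list met a region of the other. Those that did not were narrower, with a median of 360 bp in EV and 417 bp in WT against 918 and 989 bp for shared regions, and weaker by q. Of the EV regions, 112033 met a WT region by at least 1 bp (81.1%, 95% Wilson interval 80.8% to 81.3%). The other 26182 were found in EV only, which is 18.9% of that list. Of the WT regions, 112677 met an EV region (68.0%, interval 67.8% to 68.2%). The other 53039 were found in WT only, 32.0% of that list and 2.03 times as many as in EV only. These counts rest on the 1 bp rule. With line-only meaning under 50% of a region's bases in the other list, they were 70524 in WT and 39174 in EV. The size of the WT excess varied with the setting. With regions at −log10 q of 2 or more it was 1.38 times (32232 against 23354), and with regions up to 1 kb apart joined 2.22 times (39960 against 18038). With both lists cut to their 138215 strongest regions by q it was 1.02 times (34960 against 34128), but equal lists with mostly 1 to 1 matches give nearly equal counts by construction.

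By length, 121 Mb lay in both lists. The EV list held another 36.6 Mb and the WT list another 58.0 Mb. Of the bases found in EV alone, 57.7% were outer edges of regions that both lists shared, 30.6% were whole regions and 11.7% were gaps that the WT list left inside an EV region. Of the bases found in WT alone, 44.7% were outer edges, 47.9% whole regions and 7.40% filled gaps. Edges and gaps were of similar total length in both directions, 21.1 and 4.27 Mb in EV against 25.9 and 4.29 Mb in WT. Whole regions, at 11.2 Mb in EV and 27.8 Mb in WT, made most of the difference in covered length. A single edge was short, with a median of 135 bp in EV and 153 bp in WT.

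**Figure D1:**
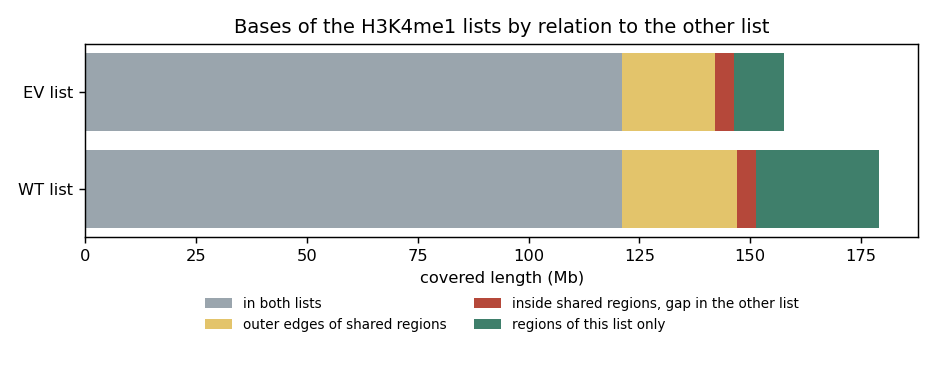
Covered length of the EV and WT H3K4me1 lists in Mb, divided by relation to the other list. Both bars hold the same 121 Mb in common, and the WT bar is longer mainly through regions found in WT only (27.8 Mb against 11.2 Mb).

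Strong regions were shared almost without exception. Each list was divided by q into 10 groups of equal size. In the strongest group of EV regions 99.8% met a WT region, and in the weakest 51.7% did. In the WT list the corresponding shares were 98.7% and 31.0%. Width gave the same order, though a wide region meets the 1 bp rule more easily by construction. Width also rose with q, from a median of 361 bp in the weakest to 2419 bp in the strongest EV group, so both orders describe much the same regions. Of the EV regions of 2 to 5 kb, 99.9% were shared and 26 were in EV only, and all of the 2259 regions over 5 kb were shared. In the WT list 98.2% of the regions of 2 to 5 kb were shared, and 352 were in WT only. Of the WT regions of 1 to 2 kb, 88.9% were shared, against 97.4% in EV. Regions in WT only were thus more often wide than regions in EV only. Of the former, 4700 were at least 1 kb wide (8.86%), and of the latter 847 (3.24%).

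**Figure D2:**
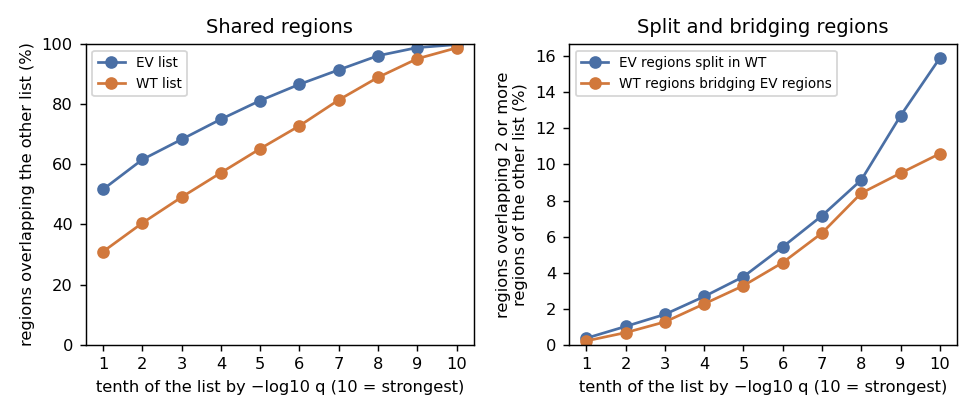
Share of regions that overlap the other list (left) and that overlap 2 or more of its regions (right), for each list divided into 10 groups of equal size by the deposited −log10 q. Sharing climbs to 99.8% in EV and 98.7% in WT, and the splitting of EV regions reaches 15.9% in the strongest group.

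Regions found in one line lay at different distances from the other line's map. An EV-only region had a median distance of 1.94 kb to the nearest WT region, and a WT-only region 4.41 kb to the nearest EV region. Within 1 kb of the other list lay 33.4% of the EV-only and 20.2% of the WT-only regions. Over 10 kb away lay 4243 EV-only (16.2%) and 16795 WT-only regions (31.7%), and over 100 kb away 187 and 1740. The WT list is the denser, which by construction shortens distances measured to it. The HEAA list, a library that the choice of these regions did not use, overlapped 57.4% of the WT-only regions (interval 57.0% to 57.8%) and 41.7% of the EV-only regions (41.1% to 42.3%). It overlapped 93.6% of the shared regions of the EV list. The HEAA list was itself the longest, with 173268 regions. Set against EV in the same way, it had 57633 regions of its own and left 22416 EV regions unmatched. Both comparisons use the same EV library.

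The WT-only regions with the highest fold, over 1 kb from any EV region and at least 500 bp wide, were small to middle-sized elements of 500 to 2127 bp. There were 17018 such regions. The first lay at chr16:3504180-3504696 (4.96-fold) and carried no H3K27ac in any library. The second, at chr16:28102075-28103632 (4.93-fold), was 6.97 kb from the nearest EV region. H3K27ac was called there in both WT libraries and in neither EV library. The third was chr21:47289225-47291004 (4.89-fold) and the fourth chr18:34031293-34032156 (4.87-fold, 30.3 kb from an EV region), both without acetylation. The fifth, chr10:125502319-125504445 (4.82-fold, 2127 bp), was acetylated in WT library 1. The remaining 3 were at chr18:8140968-8141610, chr12:114138765-114139264 and chr8:56284381-56284956. The last 2 lay in H3K27me3 regions in EV and in none in WT. All 8 were also in the HEAA list, and none held a UTX or MLL4 peak in any line.

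The 4 widest WT-only regions were 3899 to 4542 bp. The widest, chr18:25290792-25295333 (3.00-fold), lay 46.8 kb from the nearest EV region and was acetylated in WT library 1 only of the EV and WT libraries. The same held for chr2:156010754-156014652, 53.8 kb away. The region chr10:75519081-75523212 had no H3K27ac in EV or WT. The region chr3:100582155-100586086 had none in any library and lay in an H3K27me3 region in EV and not in WT. No EV library called acetylation at any of the 12 WT-only regions named, and of all WT-only regions only 3.23% and 2.35% had it in EV libraries 1 and 2. All 4 of the wide regions were in the HEAA list, in 2 to 4 pieces.

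Among EV-only regions 4834 passed the same limits of distance and width. The highest fold was at chr2:11054023-11054758 (4.50-fold), without H3K27ac and with H3K27me3 in WT but not in EV, followed by chr8:53708690-53709920 (4.47-fold), acetylated in EV library 1 only. The region chr11:94287095-94287849 (4.32-fold) had no H3K27ac and was absent from HEAA. The region chr7:27196587-27197161 (4.29-fold) was acetylated in all 4 EV and WT libraries although the WT list held no H3K4me1 there. Next came chr1:171770779-171771374 (4.25-fold, EV library 1), chr21:37525600-37526106 (4.25-fold, EV library 2) and chr8:90570269-90570926 (4.11-fold, both EV libraries and WT library 1). The eighth was chr1:232748854-232750460, without H3K27ac. Of these 8, 6 were in the HEAA list. The widest EV-only regions were chr4:55348529-55351937 (3409 bp), chr9:27533725-27536595 (2871 bp), chr2:21644747-21647613 (2867 bp) and chr7:75896915-75899638 (2724 bp). H3K27ac was called at the chromosome 9 and chromosome 2 regions in both EV libraries and in neither WT library. The chromosome 7 region lay in H3K27me3 regions in EV, WT and HEAA, and the chromosome 2 region in HEAA only. No UTX or MLL4 peak lay in these 12 regions either, and such peaks were nearly absent from line-only regions of both lists.

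Where regions matched 1 to 1, their widths were nearly alike. There were 88881 such pairs, 64.3% of the EV and 53.6% of the WT list. The WT region was a median of 1.02 times as wide as its EV partner, with an interquartile range of 0.789 to 1.39, and was the wider of the pair in 52.0%. More pairs were over 2-fold wider in WT (10361, 11.7%) than over 2-fold narrower (6562, 7.38%). The direction depended on size. Pairs with a mean width under 1 kb had a median ratio of 1.04, and those of 2 to 5 kb a ratio of 0.993, with 47.9% wider in WT. The longest regions were also fewer in WT, 2111 over 5 kb against 2259 in EV, although the WT list was longer as a whole.

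Splitting and bridging of regions went both ways at similar rates. An EV region was called split when 2 or more WT regions overlapped it, and a WT region was called bridging when it overlapped 2 or more EV regions. There were 8269 split EV regions, 5.98% of the list, and 7790 bridging WT regions, 4.70%. Most were in 2 pieces, 7480 of the split and 7150 of the bridging regions, and 105 and 93 were in 4 or more. Which was the more frequent depended on the setting. The ratio of split to bridging counts was 1.06 here, 1.12 with regions at −log10 q of 2 or more, 0.910 with regions up to 1 kb apart joined and 0.898 with equal lists (6910 split and 7696 bridging regions). Both kinds were large regions, with a median width of 2580 bp for the split and 2474 bp for the bridging ones. A wide region meets 2 or more regions of the other list more easily by construction. Of the EV regions over 5 kb, 51.8% were split in WT, and of the WT regions of that size, 47.5% bridged EV regions. In the strongest of the 10 groups by q, 15.9% of the EV regions were split and 10.6% of the WT regions were bridging.

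The EV region in the most pieces was chr12:50603615-50613633, 10019 bp wide, which met 7 WT regions. Behind it came chr7:130577202-130595129, chr5:57127499-57139982, chr13:110440296-110448572 and chr12:49387258-49392850, each with 6 WT pieces. The sixth, chr16:87879311-87899553, was the widest at 20243 bp, had 5 WT pieces and was the only one with a UTX peak in WT. All 6 were acetylated in both EV libraries. In the WT libraries 5 of the 6 were, and the 5593 bp region chr12:49387258-49392850 was in neither. The HEAA list also broke all 6, into 2 to 5 pieces. Of all EV regions over 5 kb, it split 48.3%. The leading bridging region was chr2:37870190-37890971, 20782 bp of unbroken H3K4me1 in WT and 7 regions in EV. It was followed by chr10:47124748-47138943, chr3:159515475-159526650 and chr1:33226068-33236192, each over 6 EV regions. The last were chr12:52621966-52643830 and chr2:46389378-46408043, each over 5. Of these 6, 5 were acetylated in both libraries of EV and of WT, and HEAA broke all 6, into 2 to 4 pieces. Regions this wide meet H3K27ac regions and several HEAA regions more easily by construction. Shared regions of the EV list, of any width, were acetylated at 46.8% and 38.4% in EV and at 51.6% and 31.6% in WT.

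UTX peaks lay more often in the gaps that opened in WT than in the gaps that closed. Split EV regions held 9191 gaps, where the WT list left bases free between its pieces. Bridging WT regions held 8547 gaps, where the EV list did. The gaps were short, with medians of 391 and 405 bp, close to the 305 bp that was the smallest distance between neighbouring regions of a list. A UTX peak of the WT line overlapped 427 split gaps (4.65%, interval 4.23% to 5.10%) and 163 bridged gaps (1.91%, 1.64% to 2.22%), a ratio of 2.44. These intervals do not overlap, but they cover counting error in 1 UTX list and 1 pair of H3K4me1 lists only. The UTX and MLL4 peaks are from libraries labelled mnase and the gaps from libraries labelled sonic. What this difference in preparation does to the overlap was not tested. In EV, where UTX had few peaks, the counts were 2 and 1. Seen from the other side, 428 of the 2565 UTX peaks of WT (16.7%) lay at a split gap and 163 (6.35%) at a bridged one. MLL4 peaks of WT had the same order at lower counts, 128 split gaps (1.39%, 1.17% to 1.65%) and 42 bridged gaps (0.491%, 0.364% to 0.664%). The HEAA peaks gave 440 and 193 gaps for UTX, and 157 and 69 for MLL4.

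The midpoints of the UTX peaks of WT were inside an EV region and outside every WT region at 447 peaks, and the reverse at 183. The order held within classes of gap width. Among gaps under 350 bp, 4.69% of the split and 2.44% of the bridged ones held a UTX peak, and among gaps of 500 to 1000 bp 4.03% and 1.06%. It also held within classes of gaps by the number of EV and WT libraries with H3K27ac called at the midpoint. Where the midpoint was acetylated in all 4 EV and WT libraries, UTX was at 270 of 1689 split gaps (16.0%, 14.3% to 17.8%) and at 110 of 944 bridged gaps (11.7%, 9.76% to 13.9%). Where it was acetylated in 1 to 3, UTX was at 3.92% and 1.67%, and where in none, at 24 of 4105 (0.585%) and at 8 of 4910 (0.163%). Gaps acetylated in all 4 held most of the gaps with UTX, and more of the split than of the bridged gaps were of that class. Within it the ratio of split to bridged shares was smaller than the 2.44 over all gaps. How much of the excess goes with acetylation was not tested. At split gaps with a UTX peak, the HEAA list covered the midpoint at 43.3%, and at split gaps without one at 62.4%. Bridged gaps, which are empty in EV and filled in WT, had the midpoint covered in HEAA at 47.2% with UTX and at 71.3% without.

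**Figure D3:**
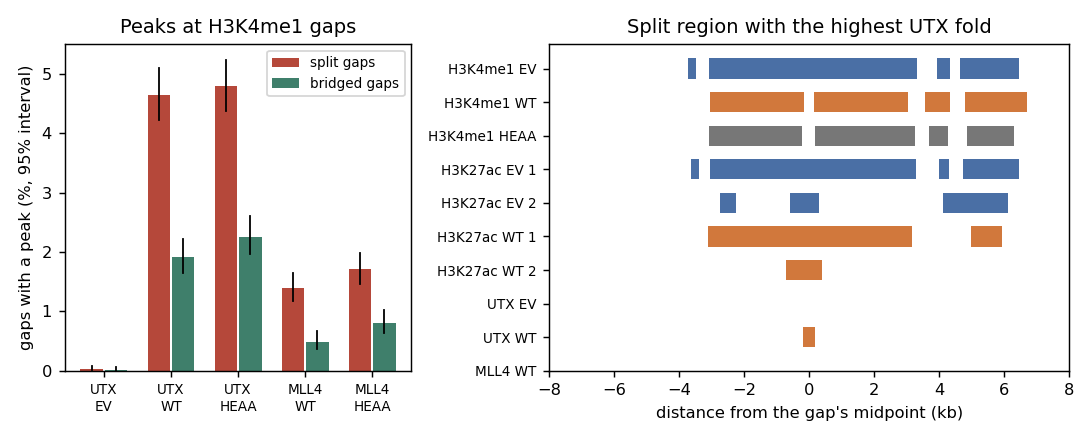
Left, share of split and bridged H3K4me1 gaps with a UTX or MLL4 peak of each line, with 95% Wilson intervals. Right, called regions around the split gap with the highest UTX fold, where the WT and HEAA H3K4me1 lists leave a gap over the UTX peak and the EV list does not.

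Among gaps with a UTX peak, the highest UTX fold was at the split gap chr20:46110603-46110923, 321 bp inside the 6.39 kb EV region chr20:46107685-46114077. The UTX peak was 12.7-fold enriched in WT (11.4-fold in HEAA), and neither H3K4me1 list covered the gap. H3K27ac was called across it in all libraries of EV, WT and HEAA, so that the centre was acetylated in EV and WT alike while H3K4me1 was called there in EV alone of these lines. The second, chr1:240994509-240995152 (12.1-fold), had an MLL4 peak in WT and no H3K27ac at its midpoint in any library. The next were chr9:38024325-38024684 (11.5-fold), in a 14.5 kb EV region, chr11:2011192-2011535 (11.3-fold) and chr19:33789539-33789898 (10.8-fold), each with MLL4 in WT and in HEAA. The sixth was chr19:4375194-4375564 (10.4-fold). Of these 6 gaps, 4 had an MLL4 peak in WT, 5 were acetylated at the midpoint in both EV and both WT libraries, and 3 were filled at the midpoint in HEAA. The bridged gap with the highest UTX fold was chr7:102033910-102034259 (12.0-fold), followed by chr2:30497579-30498069 (10.7-fold) and chr16:4995791-4996104 (10.4-fold). Then came chr19:883759-884095 (10.4-fold), chr16:17727037-17727681 (9.61-fold) and chr3:193603473-193604114 (9.49-fold). MLL4 was called in WT at 2 of these 6, and HEAA filled the midpoint of 2. Over all gaps with a UTX peak, MLL4 was called in WT at similar shares, 23.2% of the split and 20.2% of the bridged ones. All 12 of these gaps were under 1 kb and closed when regions up to 1 kb apart were joined.

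H3K27ac, a readout of the same lines that was not used to choose the regions, was low at regions of either line alone. EV-only regions were acetylated at 13.4% and 9.79% in EV libraries 1 and 2, and at 10.3% and 5.60% in WT libraries 1 and 2. WT-only regions were acetylated at 3.23% and 2.35% in EV and at 8.07% and 1.82% in WT. The shared regions of the EV list stood at 46.8% and 38.4% in EV and at 51.6% and 31.6% in WT. Thus the WT-only regions were the least acetylated in each of these libraries, and 90.4% of them (47948) had no H3K27ac in any of the 4. In EV-only regions that share was 82.2%, and in shared regions of the EV list 40.7%. WT-only regions over 10 kb from the EV map were acetylated at 1.01% and 0.709% in EV and at 6.22% and 0.971% in WT.

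The libraries differed in covered length in opposite directions by number. Library 1 covered 88.1 Mb in EV and 96.0 Mb in WT, and library 2 covered 71.6 and 55.3 Mb. The comparison was therefore made within a library, as the acetylated share of WT-only regions minus that of EV-only regions. Taking the difference removes list length only in part, because a shorter H3K27ac list can lower both shares and the points between them. This difference was −10.2 and −7.44 percentage points in the EV libraries and −2.26 and −3.78 in the WT libraries. The EV and WT values did not overlap. Their means were −8.81 ± 1.94 points in EV and −3.02 ± 1.07 in WT (SD, n = 2 each), 5.79 points apart. The exact two-sided permutation test over 6 splits gave p = 0.333 (n = 2 and 2), the smallest value this design allows, so it cannot reach 0.05. The labels do not say whether the numbered libraries came from separate cultures, and the spread may be technical. The shift was 7.93 points in library 1 and 3.66 in library 2. In library 1 it came from a higher WT-only share and a lower EV-only share in WT, and in library 2 from the EV-only share, while the WT-only share was 0.530 points lower in WT. The HEAA libraries had values of −4.61 and −2.91. The difference of 5.79 points between the lines was smaller with other H3K27ac lists, at 3.08 with equal numbers of H3K27ac regions and 2.09 with H3K27ac regions at −log10 q of 5 or more.

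**Figure D4:**
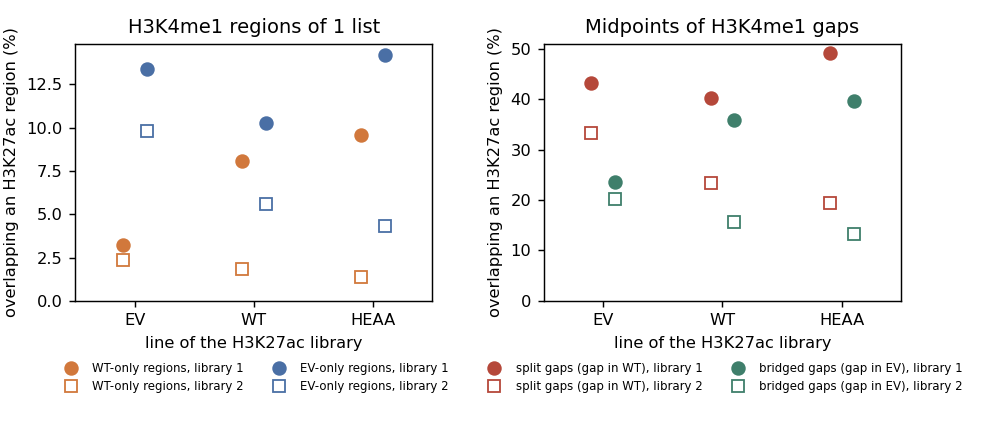
Share of line-only H3K4me1 regions (left) and of gap midpoints (right) that overlap an H3K27ac region, 1 point per library of EV, WT and HEAA, filled for library 1 and open for library 2. The distance between the paired classes is larger in both EV libraries (WT-only minus EV-only −10.2 and −7.44 points) than in both WT libraries (−2.26 and −3.78).

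Whole changes of acetylation were rare at these regions. A pattern with H3K27ac in both WT libraries and neither EV library was found at 169 WT-only regions (0.319%), against 0.686% of all WT H3K4me1 regions. The reverse pattern was found at 66 WT-only regions (0.124%), against 1.07% of all. Of the EV-only regions, 319 had H3K27ac in both EV libraries and neither WT library (1.22%), near the 1.36% of all EV regions. A further 30 had the reverse (0.115%), against 0.758%. These shares were near or below those of all regions of the same list, which were acetylated more often. The order of the patterns differed in the WT list. Among WT-only regions the WT pattern was the more frequent, and among all WT regions the EV pattern was (1768 against 1137). The EV pattern was the more frequent both in EV-only and in all EV regions (1879 against 1048).

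Seen from the acetylated side, H3K4me1 differed between lines in the direction of the acetylation. The 4 libraries gave 73424 merged H3K27ac regions. In 1100 of them (1.50%) acetylation was called in both WT libraries and neither EV library. H3K4me1 was present at 80.5% of these in EV (interval 78.0% to 82.7%) and at 93.8% in WT (92.2% to 95.1%), with 165 regions marked in WT and not in EV and 18 the other way. In bases, H3K4me1 covered 57.2% of these regions in EV and 85.0% in WT. In 1681 regions (2.29%) acetylation was called in both EV libraries and neither WT library. There H3K4me1 was present at 91.4% in EV (90.0% to 92.7%) and 81.4% in WT (79.4% to 83.2%), with 27 and 196 discordant regions, and its cover was 80.4% and 60.8% of the bases. The 28939 regions acetylated in all 4 libraries had H3K4me1 at 95.2% in EV and 93.8% in WT. Their bases were covered to 69.1% in EV and 66.6% in WT, so that constantly acetylated chromatin carried slightly less called H3K4me1 in WT although the WT list was longer.

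EV regions with H3K27ac were more often found again in WT than those without. Of the EV regions acetylated in both EV libraries, 95.3% were shared, and of those acetylated in neither 71.5%. Averaged over 10 groups of equal strength, these shares were 86.2% and 78.6%. In the WT list, 97.7% of the regions acetylated in both WT libraries and 51.8% of those acetylated in neither were shared, or 92.9% and 60.2% at equal strength. The difference between acetylated and other regions was thus larger in the WT list, also at equal strength.

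The gaps inside regions were acetylated more often than line-only regions. The midpoint of a split gap lay in an H3K27ac region at 43.2% and 33.4% in the EV libraries and at 40.2% and 23.4% in the WT libraries. For bridged gaps the shares were 23.6% and 20.2% in EV and 35.9% and 15.7% in WT. The difference of split minus bridged gaps was 19.7 and 13.3 points in EV, and 4.32 and 7.71 in WT, without overlap between the lines. The mean was 16.5 ± 4.51 in EV and 6.02 ± 2.40 in WT (SD, n = 2 each), a change of −10.4 points (exact two-sided permutation test, p = 0.333, n = 2 and 2, again the smallest possible). The change was −15.3 points in library 1 and −5.56 in library 2, and here too the length of the H3K27ac list is removed only in part. Outer edges gave differences of WT-only minus EV-only edge bases of −11.9 and −7.60 points in EV and of 2.23 and −3.04 in WT. The lines did not overlap here either, but the WT libraries differed in sign. The same test gave the smallest possible value (exact two-sided permutation test, p = 0.333, n = 2 and 2). Bases at the edges found in EV only were acetylated at 19.8% and 13.9% in EV and at 13.9% and 7.78% in WT. Bases at the edges found in WT only stood at 7.87% and 6.29% in EV and at 16.1% and 4.74% in WT. At split gaps with a UTX peak, acetylation of the midpoint was high in each line, 84.3% and 77.0% in EV and 90.4% and 70.7% in WT. Bridged gaps with a UTX peak had similar values, 84.7% and 81.6% in EV and 93.9% and 73.6% in WT.

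H3K27me3, the repressive mark removed by UTX, overlapped line-only regions more often than shared ones. It was called at 11.1% of the EV-only regions in EV (interval 10.8% to 11.5%) and at 8.41% in WT. WT-only regions had it at 11.3% in EV (11.0% to 11.6%) and 6.64% in WT (6.43% to 6.86%). The shared regions of the EV list had it at 5.04% in EV and 3.36% in WT. The share was thus lower in WT than in EV in all 3 classes. In HEAA it was 10.3% of the EV-only, 8.05% of the WT-only and 3.99% of the shared regions, also below EV in each class. The WT H3K27me3 list was also shorter as a whole, 0.674 times as long as that of EV in the median window of 5 Mb, and the part of this in the result was not tested. Far from the other line's map the mark was more frequent. EV-only regions over 10 kb from a WT region had it at 19.0% in EV (17.9% to 20.2%) and 16.2% in WT, and WT-only regions over 10 kb from an EV region at 15.2% (14.7% to 15.8%) and 9.77%.

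UTX and MLL4 peaks were nearly absent from line-only regions. A UTX peak of WT lay in 5 of the 53039 WT-only regions (0.00943%) and in 6 of the 26182 EV-only regions (0.0229%). Of the shared regions in the EV list, 1768 had one (1.58%, interval 1.51% to 1.65%). MLL4 of WT was at 0 WT-only regions, which allows a share of up to 0.00566%, at 4 EV-only regions and at 517 shared ones (0.461%).

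The longer WT map was not spread evenly over the genome. Covered length was higher in WT on each of the 23 chromosomes, from 1.06 times the EV length on chromosomes 7, 12, 15 and 17 to 1.34 times on chromosome 10. On chromosome 10, 38.7% of the WT regions were in WT only and 13.7% of the EV regions in EV only, the lowest EV-only share of any chromosome. The WT-only share was higher on chromosome X (40.2%), which also had the highest EV-only share (25.8%). Over 540 windows of 5 Mb with at least 50 kb of H3K4me1 in EV, the ratio of WT to EV had a median of 1.15, and 478 windows were above 1. Of the 16 windows above 1.5, 6 were on chromosome 10. The highest ratio was at the distal end of that chromosome, in chr10:130000001-135000000, where 119 kb in EV stood against 263 kb in WT (2.20 times). The adjoining windows had 297 against 563 kb (chr10:125000001-130000000, 1.89 times) and 384 against 606 kb (chr10:120000001-125000000, 1.58 times). Outside chromosome 10, chr8:55000001-60000000 (1.87 times) and chr4:175000001-180000000 (1.72 times) led.

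The ratio was lowest in chr9:15000001-20000000, where H3K4me1 covered 192 kb in EV and 122 kb in WT (0.638 times). Next were chr18:60000001-65000000 (0.756 times) and chr18:70000001-75000000 (0.795 times), the only others below 0.8. These windows were picked for their H3K4me1 ratios, and other marks are given beside them as descriptions. In the 3 distal windows of chromosome 10, H3K27me3 was longer in WT, 1.96, 1.23 and 2.08 times in order of position, against a median window of 0.674. H3K27ac was 1.28, 1.59 and 1.57 times as long in library 1 (median window 1.10) and 0.869, 1.01 and 0.964 times in library 2 (median 0.767). In the chromosome 9 window, H3K27me3 was 0.151 times and H3K27ac 0.617 and 0.725 times as long in WT as in EV. In the chromosome 18 windows H3K27me3 was at 0.144 and 0.577 times. The HEAA H3K4me1 list, which shares the EV list as its reference, had ratios of 1.64, 2.07 and 2.33 in the chromosome 10 windows and 0.708 in the chromosome 9 window. Against the median window of each mark, H3K4me1, H3K27me3 and both H3K27ac libraries were all higher in the 3 windows of chromosome 10 and all lower in the window of chromosome 9 and the 2 of chromosome 18. The ratios are of called length and are not scaled to the amount of DNA in a window, and whether that amount differs between the lines was not tested.

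**Figure D5:**
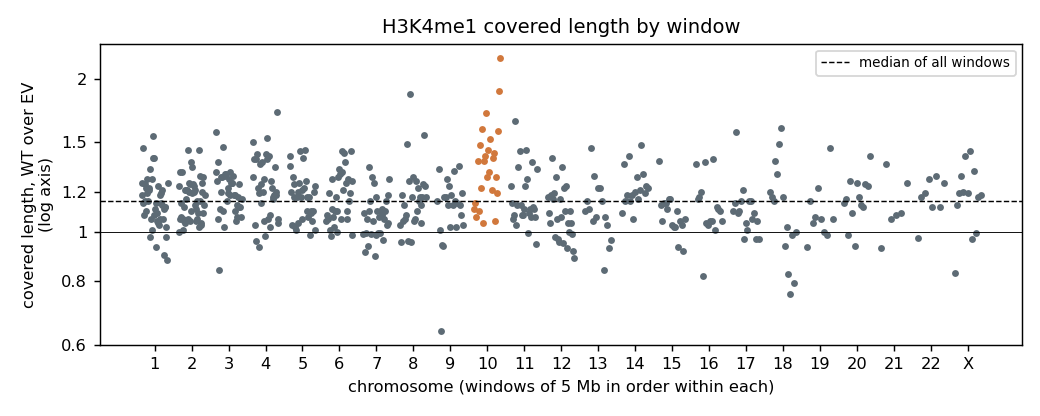
Covered H3K4me1 length in WT over EV (log axis) in windows of 5 Mb, in order along each chromosome, with chromosome 10 in orange and the median of 1.15 as a dashed line. Chromosome 10 holds 6 of the 16 windows above 1.5, and the last 3 of its plotted windows reach 1.58, 1.89 and 2.20.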

How the data were processed

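The data were ChIP-seq peak lists of UMUC1 lines. MACS2 and the builds hg19 and GRCh37 are named in the submitters' processing notes. For the aligner, the filters, the control set against each list and the caller version, nothing was stated in the labels or notes used. The titles name 6 input samples, an mnase and a sonic one for each line. These had no peak list and were not used here. Lists of the authors give for each region a fold enrichment, a linear ratio over the caller's background, used only to describe or rank regions within a list. The deposited −log10 q-value was used to rank and filter, and the deposited −log10 p-value was not used. The deposited score was not used. H3K4me1, H3K27ac and H3K27me3 lists were broad regions, 1 per library, and the UTX and MLL4 lists narrow peaks.

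Regions on autosomes and chromosome X were intersected by scripts (Python 3.11.15, pandas 2.3.3, NumPy 2.4.6) that were tested on simulated lists. Scaffolds (58 EV and 78 WT H3K4me1 regions) were left out. Overlap means at least 1 shared bp. Wilson intervals (95%) and the limit for a count of 0 (3 counts) cover counting error only. H3K27ac libraries were compared by exact permutation. The members and lists were chosen with earlier results of these data known. Named regions were the 8 highest by fold and the 4 widest line-only regions of each line, the 6 most broken split and bridging regions, and 6 gaps of each kind by UTX fold. Windows were picked by their ratio after it was seen. Alternatives covered the q limit, list length, the overlap rule, joining, width, the UTX and H3K27ac lists, libraries and chromosome 10. An hg19 sequence or annotation was not used here, so no genes or sequences are named and the planned gene lists were not analysed here.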

Additional observations from a re-analysis of the deposited data

How the results depend on the processing

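Counts and shares of the H3K4me1 comparison moved with the lists, and no direction between EV and WT reversed except the order of split and bridging counts and a width ratio that reached 1.00. With only regions at −log10 q of 2 or more, 75.6% of EV and 69.8% of WT bases were shared, the covered length was 1.08 times EV and the width ratio 1.00. WT-only regions then numbered 32232, split regions 5414 and bridging regions 4826, and UTX lay at 7.05% of split and 2.97% of bridged gaps. With equal numbers of regions the values were 74.7%, 70.5%, 1.06 and 1.02, with 34960 WT-only regions and UTX at 5.59% of split and 1.90% of bridged gaps. With regions up to 1 kb apart joined they were 79.1%, 69.3%, 1.14 and 1.03, with 2946 split and 3236 bridging regions and UTX at 1.14% and 0.422% of gaps. Without regions under 500 bp, 68.1% of WT bases were shared, the covered length was 1.13 and the width ratio 1.01. There were then 32716 WT-only, 16476 EV-only, 4915 split and 4050 bridging regions, and UTX lay at 7.34% and 3.45% of gaps. In gaps of at least 500 bp UTX lay at 3.64% and 0.858%, in gaps under 500 bp at 4.98% and 2.36%, and with UTX peaks at −log10 q of 5 or more at 3.88% and 1.40%. Without chromosome 10, 67.9% of WT bases were shared, with 1.13 and 1.01 for covered length and width. That alternative and the gaps under 500 bp were chosen after the data were seen. The causes were not tested.

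The acetylation differences kept their sign under each alternative run, from 2.09 to 10.2 points for line-only regions and from −16.4 to −6.53 for gaps. The lowest line-only values were 2.09 with H3K27ac at −log10 q of 5 or more and 3.08 with equal numbers of H3K27ac regions, and the gap values nearest 0 were −6.53 with regions joined and −7.36 with that q limit. Within 1 library number they were 3.66 to 7.93 and −15.3 to −5.56. With the replicate number as a block, the replicate block fit gave 5.79 and −10.4 points (exact permutation within 2 numbers, p = 0.500 each, n = 2 pairs), the smallest p of that test. The labels give a number without saying that it marks a shared batch. Deviations of same-numbered libraries correlated at 0.175 over 73424 merged H3K27ac regions. Of the 48 named regions and gaps, 48 were kept under the q limit, equal numbers and the width limit, and 26 under joining. Joining lost all 12 named gaps with UTX (6 split and 6 bridged), 4 of 6 split and 5 of 6 bridging regions, and 1 of 24 line-only regions. Depth is unknown, so the sensitivity of the lists could not be compared.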
